A study of Mus musculus with 7 samples.

Results

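Histone genes of mouse leukemia cells were compared between cells exposed to the small molecule BRD7116, of which only the code name is used here, and cells exposed to its vehicle. The genes were taken by the start of their annotated symbol (H1f, H2a, H2b, H3c, H3f, H4c and the older Hist forms), with the MHC genes, whose symbols start with H2-, left out. That rule uses no measured value, though the family was picked for description with earlier results of these data known. This gave 67 of 16593 annotated genes, read by 75 of the 25697 probes of an Illumina mouse expression array. The cells, labelled as leukemia stem cells (LSCe), had been freshly isolated. They were held in suspension in serum-containing medium for 6 h with 5 µM BRD7116 in 0.2% DMSO, on 5 arrays, or with 0.2% DMSO alone, on 2 arrays. The mouse strain, the lesion behind the leukemia and the markers used for isolation are not given in the sources used here, nor is it stated that replicates came from separate animals or cultures, so p-values cover only the spread among these arrays, which may be technical.

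Nucleosomes wrap DNA around a core of H2A, H2B, H3 and H4, and the linker histone H1 binds where the DNA enters and leaves. Replication-dependent genes, most of them in clusters on a few chromosomes, supply these proteins in S phase, and their mRNAs end in a conserved stem-loop bound by SLBP instead of a poly(A) tail. Replication-independent genes encode variants such as H2A.Z and H3.3, are transcribed throughout the cell cycle and make polyadenylated mRNAs, and H2ax makes both kinds of transcript. The 67 genes comprised 51 replication-dependent, 5 replication-independent and 10 germ-line genes, with H2ax kept apart. RNA was amplified by in vitro transcription with a biotin-labelled nucleotide, and the labels do not name the primer, so it is not known here whether stem-loop and polyadenylated histone transcripts were copied alike. The replication-dependent genes of a type have near-identical coding sequences, so a probe may also read its paralogs. Their values are uncertain to that extent.

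Some motifs before these genes differ in frequency by histone type, though H2A and H2B promoters had similar motif counts. The groups described below are also ordered by type, and a link between sequence and array values was not tested. In 4 tested pairs of H2A and H2B genes the starts lie head to head on chromosome 13, and the whole sequence between the starts is shown because it precedes both genes of a pair. It is written 5′ to 3′ on the plus strand of GRCm38.p6, from RefSeq. Capitals mark CCAAT in either orientation and the octamer ATTTGCAT, the binding motif of OCT1, known as an activator of H2B genes. The region of H2ac11 and H2bc11 is chr13:22042950-22043197, that of H2ac12 and H2bc12 chr13:22035644-22035820, that of H2ac15 and H2bc15 chr13:21753913-21754075, and that of H2ac7 and H2bc7 chr13:23574208-23574380.
H2ac11/H2bc11: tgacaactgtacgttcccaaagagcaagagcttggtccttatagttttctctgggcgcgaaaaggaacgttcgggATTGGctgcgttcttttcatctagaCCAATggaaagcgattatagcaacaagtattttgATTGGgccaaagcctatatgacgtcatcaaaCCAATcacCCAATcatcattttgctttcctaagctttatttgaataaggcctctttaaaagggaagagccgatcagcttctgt
H2ac12/H2bc12: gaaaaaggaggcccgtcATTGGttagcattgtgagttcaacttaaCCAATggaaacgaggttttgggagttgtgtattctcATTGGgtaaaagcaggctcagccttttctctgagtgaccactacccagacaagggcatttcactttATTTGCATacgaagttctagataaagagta
H2ac15/H2bc15: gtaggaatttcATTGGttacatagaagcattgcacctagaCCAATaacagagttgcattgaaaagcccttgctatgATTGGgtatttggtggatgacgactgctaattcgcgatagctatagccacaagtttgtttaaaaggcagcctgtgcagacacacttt
H2ac7/H2bc7: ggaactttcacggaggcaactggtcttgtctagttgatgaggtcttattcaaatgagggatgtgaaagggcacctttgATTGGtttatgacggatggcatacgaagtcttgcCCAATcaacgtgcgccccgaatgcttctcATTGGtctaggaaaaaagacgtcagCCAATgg

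Single promoters are shown for an H4, an H3, an H1 and a variant gene whose values are described below. Each run is the 150 bases just before the start, 5′ to 3′ on the plus strand of GRCm38.p6, which is the coding strand of all 4 genes, from RefSeq. Capitals mark GGTCCG, the core of the H4 element to which HINFP binds, the H1 box AAACACA, and CCAAT in either orientation. The positions are chr13:21734884-21735033 for H4c11, chr3:96268504-96268653 for H3c13, chr13:23738657-23738806 for H1f2 and chr3:137864337-137864486 for H2az1.
H4c11: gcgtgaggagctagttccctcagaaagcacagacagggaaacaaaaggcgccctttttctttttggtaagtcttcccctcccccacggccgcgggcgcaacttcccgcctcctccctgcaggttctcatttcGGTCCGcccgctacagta
H3c13: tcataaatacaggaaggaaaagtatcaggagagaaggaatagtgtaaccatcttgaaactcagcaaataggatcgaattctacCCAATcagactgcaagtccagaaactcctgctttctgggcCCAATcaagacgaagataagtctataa
H1f2: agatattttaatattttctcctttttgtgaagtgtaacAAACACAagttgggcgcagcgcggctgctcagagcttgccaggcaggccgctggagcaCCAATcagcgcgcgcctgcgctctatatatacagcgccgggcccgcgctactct
H2az1: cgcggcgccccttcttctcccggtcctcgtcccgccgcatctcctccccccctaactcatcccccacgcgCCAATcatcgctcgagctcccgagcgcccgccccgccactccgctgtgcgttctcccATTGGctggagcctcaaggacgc

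Promoters were found for 61 of the 67 genes, and motifs were counted in the 250 bases before the start, on both strands. Counts by histone type cover replication-dependent genes only. Over histone promoters of all classes CCAAT lay in 48 of 62. CCAAT lay in all 14 H2A, all 12 H2B and all 5 H1 promoters and in 6 of 7 H3 promoters, but in 2 of 9 H4 promoters, against 33.8% of 32851 RefSeq promoters. GGTCCG lay in 7 of 9 H4 promoters and in 6.72% of all. The octamer lay in 6 of 14 H2A and 6 of 12 H2B promoters, in no H1, H3 or H4 promoter of that class, and in 1.6% of all. Over all classes it lay in 15 of 62 histone promoters, among them 1 of 5 replication-independent ones. AAACACA lay in 4 of 5 H1 promoters and in 6.25% of all. TATAAA lay in 26 of 62 histone promoters and in 12.4% of all. Head-to-head pairs count the same letters for both genes, and a match describes the sequence only.

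The 7 arrays lay on 3 chips, and 1 chip was far dimmer than the others. This dim chip is called chip 1, and its arrays were BRD7116 replicate 1 and DMSO replicate 2, with 4412 to 4585 probes detected and a brightest intensity of 4515 to 4704 units. On the other 5 arrays 6749 to 8451 probes were detected and the brightest intensity was 27582 to 39654. BRD7116 replicate 2 shared chip 2 with DMSO replicate 1, while BRD7116 replicates 3, 4 and 5 were on chip 3 without a control, so each gene's difference was also taken within the dim chip and within chip 2. Detection of histone probes ran from 27 to 40 per array. Of 12 myeloid progenitor markers on the array 11 were detected on at least 2 arrays, 9 of them on all 7, with Prtn3, Ctsg and Elane the most abundant. No T cell marker of 4 was detected on any array, and the lists for B cells, stroma and endothelium had 1 marker each on at least 2 arrays.

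Of the 67 histone genes 41 had a probe detected on at least 2 arrays and were tested, 23 of them on all 7 arrays. With limma 0 of 41 passed an adjusted p of 0.05, and the share past it among all 6969 genes and unnamed probes was 0%. At an unadjusted p under 0.05 there was 1 histone gene, H4c11, on the lower side, where 3.7% of all features lay, and 0 on the higher side, where 3.37% lay (7.07% in all). The mean was higher with BRD7116 for 18 histone genes (43.9%, against 55.2% of all features) and lower for 23 (56.1%, against 44.8%), and the median log2 fold change was -0.047 against 0.046 over all features. All 5 treated arrays lay below both controls for 6 histone genes (14.6%, against 5.4%) and above both for 0 (against 5.75%). Within both chips that held a control 22 histone genes were lower (53.7%, against 25.6%) and 6 were higher (against 27.6%), with undetected probes included in these differences. The 95% confidence interval of a histone gene had a median half-width of 0.57 on the log2 scale (0.41 to 1.64), against 0.62 over all features. Fewer cells of a kind and less RNA per cell cannot be told apart in these bulk samples. With DMSO replicate 1 left out, the dim control stood alone, and this brought 2 histone genes near background past the threshold, H2bc4 and H2al2a, where 9.01% of all features passed.

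**Figure D1:**
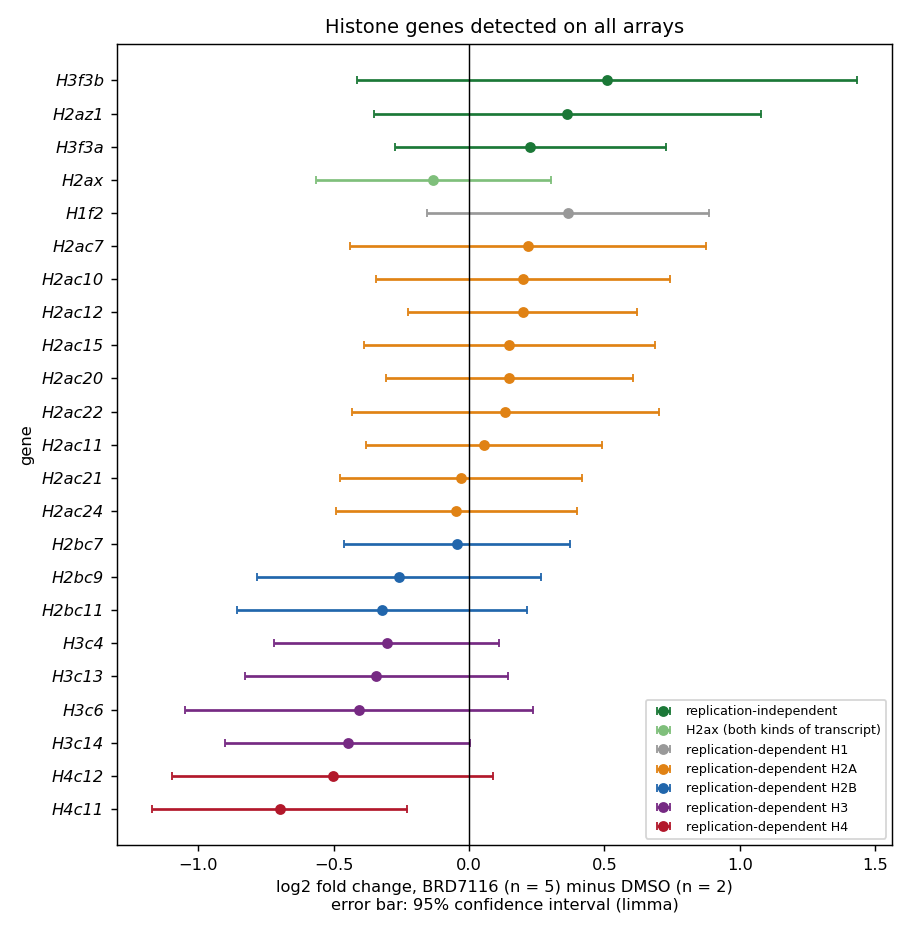
Log2 fold change of each of the 23 histone genes detected on all 7 arrays, BRD7116 (n = 5) minus DMSO (n = 2), with its 95% confidence interval from limma and coloured by class and histone type. H2A, H1 and variant genes lie mostly right of 0, H2B, H3 and H4 genes lie left of 0, and only the interval of H4c11 (-1.17 to -0.23) does not cross 0.

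Replication-dependent genes for different histone types had values of different sign. Ordering the genes by type was decided after the values were seen, so these counts describe the genes and carry no test. Of 12 tested H3 and H4 genes 10 had a lower mean with BRD7116 and 2 a higher one, and the median log2 fold change was -0.32. All 7 tested H2B genes had a lower mean, with a median of -0.27. Of 12 H2A genes 10 had a higher mean and 2 a lower one, with a median of 0.14, and both tested H1 genes had a higher mean. The genes counted as higher include H1f5, H2ac8 and H4c6, which were detected on no control and gave no bound above 1. Within the chips this order was less plain for H2A, whose median was -0.067 in the dim chip and -0.091 in chip 2, while H3 and H4 had -0.48 and -0.33 and H2B had -0.69 and -0.31, against 0.017 and 0.0028 over all features. The dim-chip values include probes not detected on its arrays, among them 4 of the 7 H2B genes (H2bc4, H2bc12, H2bc14 and H2bc15) on BRD7116 replicate 1. Over the genes detected on all 7 arrays the medians within the dim chip and chip 2 were -0.22 and -0.31 for 3 H2B genes, -0.64 and -0.35 for 6 H3 and H4 genes, and -0.092 and -0.042 for 9 H2A genes.

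Histone H4 gave the gene with the smallest p of the family. H4c11, on chromosome 13, stood at 7.50, 7.17, 7.16, 7.60 and 7.47 on BRD7116 replicates 1 to 5 and at 7.92 and 8.24 on DMSO replicates 1 and 2, as normalized log2 levels. Every treated array was below both controls, and the array nearest to them was BRD7116 replicate 4. The group means were 7.38 ± 0.20 (SD, n = 5) with BRD7116 and 8.08 ± 0.22 (SD, n = 2) with DMSO, and the log2 fold change was -0.70 (standard error 0.20, 95% confidence interval -1.17 to -0.23, limma unadjusted p = 0.00916 and adjusted p = 0.658). The difference was -0.73 within the dim chip and -0.75 within chip 2. It was negative in all 20 alternative settings, from -0.85 to -0.33, with the smallest size from the authors' processed values. It did not pass the threshold in any of them. The changes of detection filter, probe choice and prior left this value as it was, and all settings reuse the same arrays. They are therefore not 20 separate checks.

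H4c12 stood at 6.76, 5.97, 6.08, 6.65 and 6.38 on the treated arrays and at 6.82 and 6.92 on the controls. Again all treated arrays were lower, with BRD7116 replicate 1 closest to them, and the log2 fold change was -0.50 (standard error 0.26, limma adjusted p = 0.661). The difference was -0.16 within the dim chip and -0.85 within chip 2, and -0.16 with the authors' values. H4c9 stood at 5.02, 6.23, 6.41, 6.34 and 6.78 against 6.54 and 7.06, with BRD7116 replicate 1 below the detection limit. Its log2 fold change of -0.64 (standard error 0.44) was -0.37 without that array, and the groups overlapped. H4c8 stood at 5.28, 6.35, 6.14, 6.11 and 6.27 against 6.64 and 5.98, a fitted log2 difference of -0.28 (standard error 0.33), with detection on 1 control only. Its groups overlapped, and without DMSO replicate 1 the value was 0.049. H4c18 stood at 5.09, 5.58, 5.70, 5.97 and 5.46 against 6.02 and 5.26 with a log2 difference of -0.080 (standard error 0.29). H4c3, detected on 4 arrays, had a log2 difference of -0.075, and H4c6, detected on 3 treated arrays and no control, gave no bound above 1.

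Among the H3 genes, 3 of the 4 detected on all arrays had all treated arrays below both controls, as did 6.82% of the features so detected. H3c13, on chromosome 3, stood at 8.55, 9.001, 8.99, 9.15 and 8.70 on the treated arrays and at 9.25 and 9.19 on the controls. Its log2 fold change was -0.34 (standard error 0.21, limma adjusted p = 0.679), with -0.64 within the dim chip and -0.25 within chip 2. H3c14 stood at 7.40, 7.77, 7.73, 7.61 and 7.92 against 8.02 and 8.25. BRD7116 replicate 1 was lowest and replicate 5 came nearest to the controls, and the log2 fold change was -0.45 (standard error 0.19, limma adjusted p = 0.658). A second H3c14 probe, detected on 5 arrays, had group means of 5.86 ± 0.42 (SD, n = 5) with BRD7116 and 6.34 ± 0.56 (SD, n = 2) with DMSO, a difference of -0.48. H3c4 stood at 8.63, 8.34, 8.38, 8.42 and 8.17 against 8.69 and 8.68, with the 2 controls almost equal. Here BRD7116 replicate 1 was the closest treated array, and the log2 fold change was -0.30 (standard error 0.18, limma adjusted p = 0.669).

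H3c6 stood at 8.46, 9.33, 8.87, 9.14 and 9.13 against 9.68 and 9.10. The control of the dim chip lay inside the treated range, so the groups overlapped, while within each chip the treated array was lower, with differences of -0.64 and -0.35. The log2 fold change of -0.41 (standard error 0.28) was -0.11 without DMSO replicate 1 and -0.70 without DMSO replicate 2. H3c1, detected on 5 arrays, stood at 5.73, 6.35, 6.62, 6.60 and 6.20 against 6.33 and 6.05. It was the only tested H3 gene of this class with a higher mean, at 0.11 (standard error 0.27), and the difference within chip 2 was 0.024. The probe was detected on neither array of the dim chip.

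**Figure D2:**
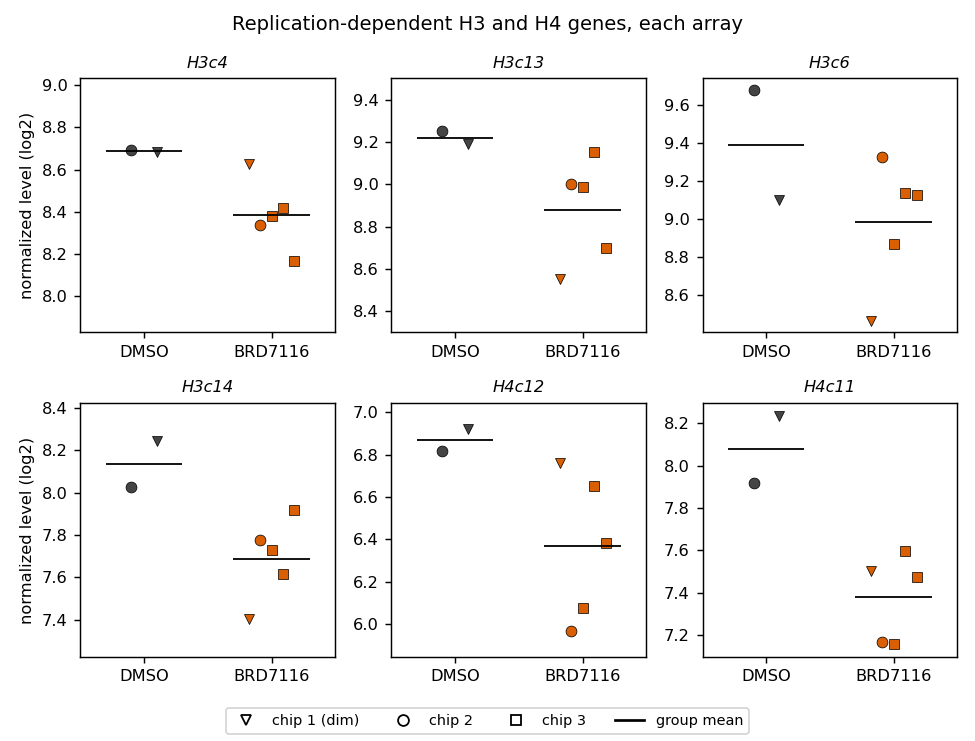
Normalized log2 level of the 6 replication-dependent H3 and H4 genes detected on all arrays, 1 point per array (2 DMSO, 5 BRD7116), with the marker giving the chip and the line the group mean; the axes do not start at 0. All treated points lie below both control points for H3c4, H3c13, H3c14, H4c12 and H4c11, and for H3c6 the dim-chip control lies among the treated points.

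For the 6 H3 and H4 genes detected on every array the median log2 fold change was -0.43, against -0.026 over the 2714 features detected on every array. All 6 had a lower mean, as did 54.1% of those features, and all 6 were lower within both chips, as were 28.6%. For 5 of them the treated arrays lay below both controls, against 6.82%. These genes may share signal through near-identical sequence, so they are not 6 separate observations. The median of all 12 tested H3 and H4 genes was negative in 20 of 20 alternative settings, from -0.47 with chip as a block to -0.12 with no detection filter. It was -0.21 without DMSO replicate 1. Some of these settings, such as the change of prior, could not move it. In the fit over 7 arrays genes of DNA replication, which mark cells in S phase, divided about evenly. Of 19 measured members 10 were higher, 9 were lower and 0 passed the threshold, with a median of 0.015. Within the dim chip the median was 0.028, with 10 higher and 9 lower. Within chip 2 it was -0.15, with 6 higher and 13 lower. Of the 19 genes 7 were lower within both chips (36.8%, against 25.6% of all features) and 4 were higher (against 27.6%). Over 20 alternative settings the median of this list ran from -0.24 to 0.28, negative in 8. At an unadjusted p under 0.05 there was 1 of the 19, on the higher side, where 3.37% of all features lay (7.07% in all). It was the licensing factor gene Cdt1, at 0.76 (standard error 0.27, limma adjusted p = 0.658), named after its value was seen. The summed linear level of the DNA replication genes was 5926 to 6970 on the treated arrays and 7196 and 5818 on the controls. Markers of red cell precursors, another dividing cell type, were detected for 2 of 6 genes, Hba-a1 and Tfrc. Their log2 fold changes were -0.92 and -0.66, and 0 passed the threshold. Both had a limma unadjusted p under 0.05 on the lower side, where 3.7% of all features lay. The other 4 were detected on no array, so the 2 do not show that such cells were present. The red cell list summed to 583 to 802 on the treated arrays and 1152 and 996 on the controls. The part of either list in the histone values was not tested.

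H2B genes had negative values, each with a 95% confidence interval that included 0. H2bc11 stood at 7.28, 7.81, 7.70, 8.10 and 7.74 on the treated arrays and at 8.12 and 7.98 on the controls. Only BRD7116 replicate 4 reached the control range, and the log2 fold change was -0.32 (standard error 0.23), with -0.69 within the dim chip and -0.31 within chip 2. H2bc9 stood at 7.33, 7.63, 7.84, 7.25 and 7.57 against 8.01 and 7.56, a fitted log2 difference of -0.26 (standard error 0.23) with overlapping groups. Without DMSO replicate 1 it was -0.032, and without DMSO replicate 2 it was -0.49. H2bc7 stood at 8.65, 8.94, 8.89, 8.98 and 8.92 against 9.07 and 8.77, and its difference of -0.044 (standard error 0.18) was smaller than the spread between replicates. All 3 were detected on every array and were lower within both chips.

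The remaining H2B genes lay closer to background. H2bc12 stood at 5.13, 6.93, 7.19, 7.02 and 7.14 against 7.33 and 7.29. All treated arrays were lower, but BRD7116 replicate 1, where the probe was not detected, lay far below the rest, and the log2 fold change of -0.63 (standard error 0.54) was -0.24 without it. H2bc14 stood at 5.35, 6.15, 6.09, 5.58 and 6.47 against 6.46 and 5.81, with overlapping groups and a fitted log2 difference of -0.21 (standard error 0.34), which was 0.11 without DMSO replicate 1. H2bc15, detected on 4 arrays, had a log2 difference of -0.27 (standard error 0.32), which was 0.25 without DMSO replicate 2. H2bc4, detected on 4 arrays, had a log2 difference of -1.08 (standard error 0.55), resting on DMSO replicate 2 at 7.75 against 5.48 on DMSO replicate 1. A second H2bc4 probe, detected on 5 arrays, had group means of 5.27 ± 0.35 (SD, n = 5) with BRD7116 and 5.14 ± 0.43 (SD, n = 2) with DMSO, a difference of 0.13, so the 2 probes of this gene disagreed in sign.

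H2A genes had mostly small positive values. H2ac10 stood at 10.88, 10.95, 11.47, 11.54 and 11.09 on the treated arrays and at 10.997 and 10.98 on the controls. BRD7116 replicates 3 and 4, from the chip with no control, were highest, and the log2 fold change was 0.20 (standard error 0.23). H2ac7 stood at 10.96, 10.91, 11.71, 11.28 and 11.23 against 11.35 and 10.65, with a log2 difference of 0.22 (standard error 0.28), and here too BRD7116 replicate 3 was highest. Its difference was 0.31 within the dim chip and -0.44 within chip 2, and -0.13 without DMSO replicate 2. H2ac22 stood at 10.38, 10.04, 10.73, 10.78 and 10.23 against 10.19 and 10.40, with a log2 difference of 0.13 (standard error 0.25). Replicates 3 and 4 were again above both controls, and the others were not.

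H2ac12 stood at 11.89, 12.26, 12.24, 12.32 and 12.14 against 11.90 and 12.04, and the fitted log2 difference was 0.20 (standard error 0.18). H2ac15 stood at 11.58, 11.99, 12.11, 12.29 and 11.73 against 11.91 and 11.68, with a log2 difference of 0.15 (standard error 0.23). H2ac20 stood at 13.31, 13.31, 13.50, 13.81 and 13.35 against 13.26 and 13.35, with a log2 difference of 0.15 (standard error 0.20). In all 3 genes BRD7116 replicate 4 was the highest array, and the groups overlapped. H2ac11 stood at 9.18, 9.26, 9.56, 9.60 and 9.53 against 9.40 and 9.34, with a log2 difference of 0.055 (standard error 0.19). H2ac21 stood at 7.68, 7.46, 7.54, 7.69 and 7.27 against 7.41 and 7.71, with a log2 difference of -0.029 (standard error 0.19). H2ac24 stood at 13.92, 13.70, 14.12, 14.23 and 14.003 against 14.003 and 14.08, with a log2 difference of -0.047 (standard error 0.19). For these 3 the difference was well under the spread between replicates.

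H2ac18 had the highest value of the H2A genes and lay near background. It stood at 6.12, 6.07, 5.64, 5.67 and 6.08 on the treated arrays and at 5.69 and 5.23 on the controls, and was not detected on DMSO replicate 2. The log2 fold change was 0.46 (standard error 0.23, limma adjusted p = 0.661), with 0.88 within the dim chip and 0.38 within chip 2, and 0.12 with the authors' values. BRD7116 replicates 3 and 4 lay between the 2 controls. H2ac4, detected on 4 arrays, had a log2 difference of 0.13, and H2ac8, detected on 2 treated arrays and no control, gave no bound above 1.

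For the 9 H2A genes detected on every array, 7 had a higher mean (against 45.9% of features so detected) and the median was 0.15. Within both chips 4 of the 9 were lower and 0 were higher, against 28.6% and 26.3%. The highest treated levels were on 2 arrays of chip 3, which has no control. Relative to each gene's mean over the 7 arrays, the median of these 9 genes was 0.15 and 0.22 on BRD7116 replicates 3 and 4, -0.038 on replicate 5, -0.19 and -0.15 on replicates 1 and 2, and -0.13 and -0.069 on the controls. With chip as a block the median of the 12 tested H2A genes was -0.064. Without BRD7116 replicate 4 it was 0.065, and without BRD7116 replicate 3 it was 0.094.

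Head-to-head H2A and H2B genes, whose starts flank the sequences shown above, were set side by side. In the fit over 7 arrays the H2A value was above the H2B value in 4 of 4 pairs, with 0.055 and -0.32 for H2ac11 and H2bc11, 0.20 and -0.63 for H2ac12 and H2bc12, 0.15 and -0.27 for H2ac15 and H2bc15, and 0.22 and -0.044 for H2ac7 and H2bc7. Within the dim chip this held in 4 of 4 pairs, within chip 2 in 2 of 4, and with the authors' values in 4 of 4. In 2 of the pairs the dim-chip value says little, because H2bc12 and H2bc15 were not detected on BRD7116 replicate 1, and in chip 2 H2bc15 was not detected on DMSO replicate 1. In chip 2 H2ac15 had 0.080 and H2bc15 0.43, and H2ac7 had -0.44 and H2bc7 -0.13. The pairs were compared after the values were seen, and the differences within pairs were not tested.

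**Figure D3:**
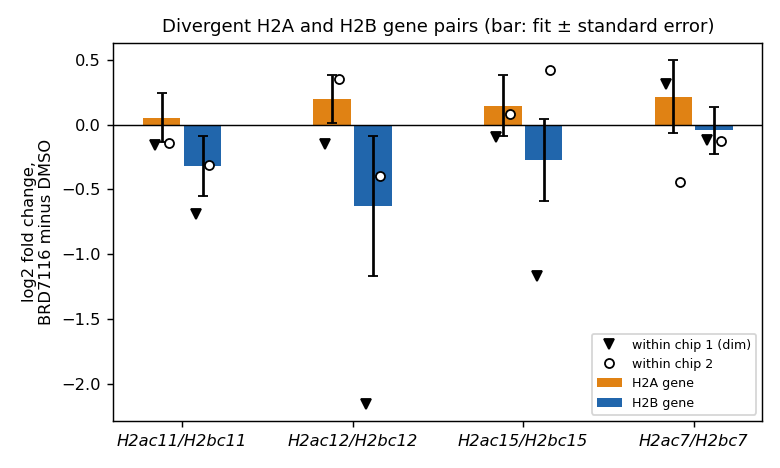
Log2 fold change (BRD7116 minus DMSO) of both genes of 4 head-to-head pairs, with bars for the fit over 7 arrays, error bars for its standard error, triangles for the difference within the dim chip and circles for that within chip 2. The H2A bar is above the H2B bar in all 4 pairs, and the triangles of H2bc12 (-2.16) and H2bc15 (-1.17) rest on an array where those probes were not detected.

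H1f2, which encodes the linker histone H1.2, was the only H1 gene detected on all arrays. It stood at 7.26, 7.74, 7.63, 7.91 and 7.81 on the treated arrays and at 7.48 and 7.13 on the controls. BRD7116 replicate 1 lay between the 2 controls and the other treated arrays lay above both. The log2 fold change was 0.37 (standard error 0.23, limma adjusted p = 0.679), with 0.13 within the dim chip and 0.26 within chip 2. It was positive in 20 of 20 alternative settings, from 0.16 to 0.61, some of which, as for H4c11, left the value as it was. H1f5, detected on 3 treated arrays and on no control, gave no bound above 1. H1f1, H1f3 and H1f4 were detected on no array.

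All 4 tested replication-independent genes had a higher mean with BRD7116, none passed the threshold, and the median log2 fold change was 0.31. H3f3b, which encodes the H3.3 variant laid down outside replication, stood at 8.91, 9.73, 9.94, 9.49 and 9.73 on the treated arrays and at 9.72 and 8.38 on the controls. Both arrays of the dim chip were low, and DMSO replicate 1 lay inside the range of the other treated arrays. The log2 fold change was 0.51 (standard error 0.40, limma adjusted p = 0.718), with 0.53 within the dim chip and 0.011 within chip 2. H3f3a, which encodes the same protein, stood at 11.11, 11.71, 11.38, 11.35 and 11.53 against 11.38 and 10.997, with a log2 difference of 0.23 (standard error 0.22). The within-chip differences were 0.11 and 0.33, and the groups overlapped.

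H2az1, which encodes the H2A.Z variant found around transcription start sites, stood at 9.85, 10.56, 10.40, 10.53 and 10.48 on the treated arrays and at 10.48 and 9.51 on the controls. The 2 arrays of the dim chip were again the lowest. The log2 fold change was 0.36 (standard error 0.31, limma adjusted p = 0.733), with 0.33 within the dim chip and 0.071 within chip 2. H2aj, near background, stood at 5.06, 5.86, 6.10, 5.87 and 5.76 against 5.98 and 4.99, with a log2 difference of 0.25 (standard error 0.35), and the difference within chip 2 was -0.11. It was detected on neither array of the dim chip. H2ax, whose product is phosphorylated at DNA breaks, stood at 8.93, 8.97, 9.09, 9.35 and 8.95 against 9.08 and 9.30. Its groups overlapped, and the log2 fold change was -0.13 (standard error 0.19).

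**Figure D4:**
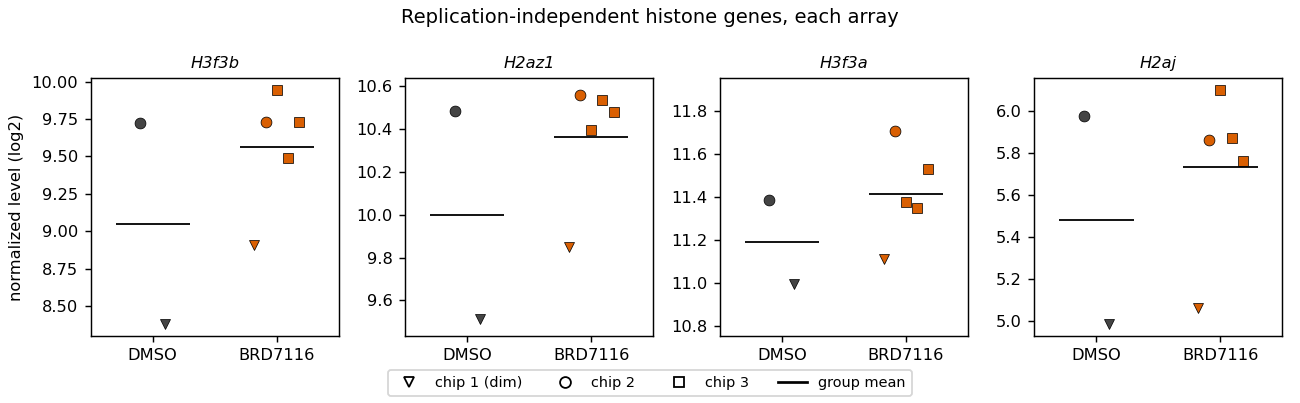
Normalized log2 level of the 4 tested replication-independent histone genes, 1 point per array (2 DMSO, 5 BRD7116), with the marker giving the chip and the line the group mean; the axes do not start at 0. The 2 arrays of the dim chip are the lowest of all 7 in each gene, and the control of chip 2 lies within the range of the other 4 treated arrays in each.

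The value of the replication-independent genes moved with the dim chip, which held 1 of 5 treated and 1 of 2 control arrays. Without both of its arrays their median was 0.0043. Without DMSO replicate 2 it was -0.14, and without DMSO replicate 1, which left the dim control alone, it was 0.80. The median of the 33 tested replication-dependent genes was -0.047, and it was 0.082 and -0.13 without DMSO replicates 1 and 2. The difference of the medians, replication-independent minus replication-dependent, was 0.35 as fitted, 0.40 with chip as a block, 0.073 without the dim chip, 0.72 without DMSO replicate 1 and -0.0071 without DMSO replicate 2. H1, H2A, H2B, H3 and H4 are pooled in the replication-dependent median, and its 14 higher and 19 lower members fall mostly along those types.

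**Figure D5:**
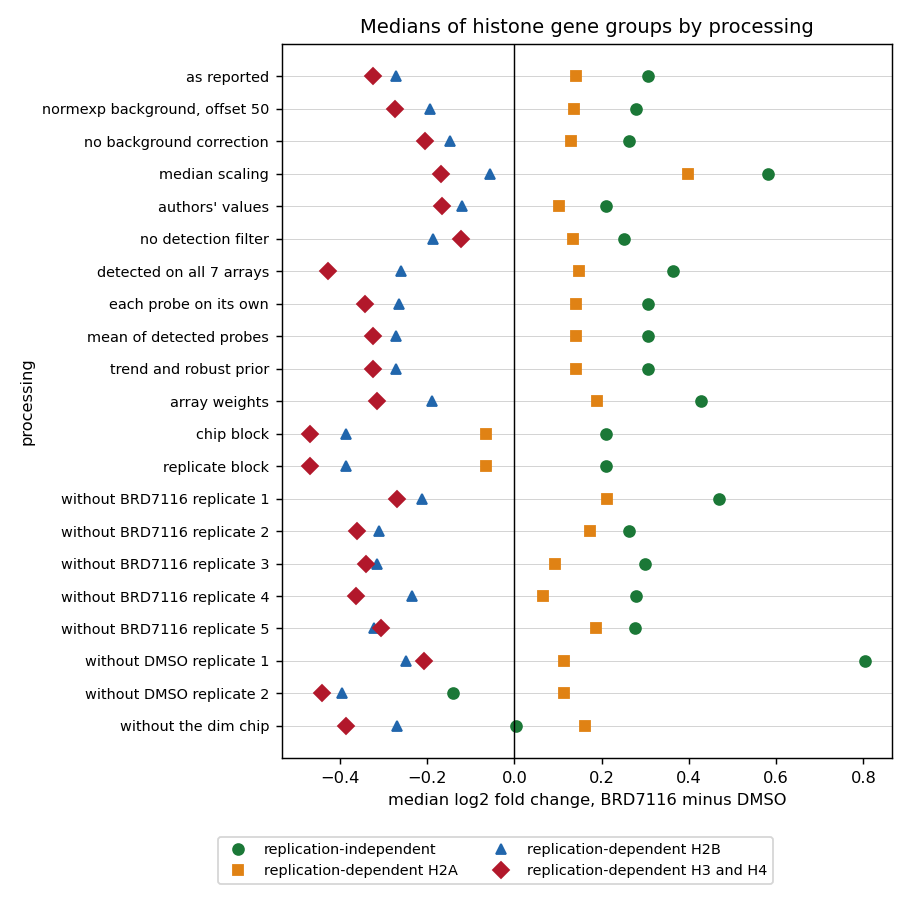
Median log2 fold change (BRD7116 minus DMSO) of 4 groups of histone genes, as reported and in 20 alternative settings, 1 row per setting; median scaling is given relative to its shift of all features. The H3 and H4 median and the H2B median are left of 0 in all 20, the H2A median is right of 0 in 18, and the replication-independent median is right of 0 in 19, from -0.14 to 0.80.

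The germ-line genes, known for their use in sperm and egg cells, were mostly undetected, and 7 of 10 could not be tested. H2ac1 and H2al1n were detected on 3 arrays and H2al2a on 2. Their log2 fold changes were -0.82 (standard error 0.71), -0.73 (standard error 0.62) and -0.75 (standard error 0.37). In each of the 3 genes DMSO replicate 2 was the highest array. H2ac1 stood at 7.45 there, with 7.13 on BRD7116 replicate 1 and 4.94 to 5.53 on the other treated arrays. In all, 29 of the 75 histone probes were detected on no array and 3 on 1 array. The 26 genes without a tested probe included 18 replication-dependent genes and, among the variants, H1f10.

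No gene of the machinery that makes and places histones passed the threshold. Of the genes for histone transcription and 3′ end processing 12 of 21 on the array were measured. Of these, 8 had a higher and 4 a lower mean, and the median log2 fold change was 0.16. Over all features 55.2% had a higher mean and the median was 0.046. Within the dim chip the median of this list was -0.17, with 4 higher and 8 lower. Within chip 2 it was 0.13, with 8 higher and 4 lower. Snrpg and Snrpb, core proteins of the U7 particle that cuts histone pre-mRNA, had log2 fold changes of 0.26 (standard error 0.19) and 0.22 (standard error 0.19). Slbp, which encodes the stem-loop binding protein, was detected on no array. Chaperones that hand new histones to the replication fork had 4 higher and 9 lower members of 13 and a median of -0.12, with Npm1 at 0.13 (standard error 0.17) and Hat1, an acetyltransferase of new H4, at -0.076 (standard error 0.16). Chaperones of variants had 6 higher and 3 lower of 9 and a median of 0.21, with Ep400 at 0.22 (standard error 0.17) and Ruvbl1 at 0.19 (standard error 0.28), both subunits of complexes that exchange H2A.Z. This median was 0.66 and -0.065 without DMSO replicates 1 and 2. In these 3 lists, of 12, 13 and 9 measured genes, limma gave 1 gene at an unadjusted p under 0.05. It was on the lower side, where 3.7% of all features lay (7.07% in all). This was Mcm2, a helicase subunit that also holds H3 and H4, at -0.53 (standard error 0.18), named after its value was seen. Of the DNA replication genes, Mcm4 had -0.21 (standard error 0.17) and Mcm5 0.093 (standard error 0.17). Cenpa, the centromeric H3 variant, had 0.12 (standard error 0.19), with -0.012 within the dim chip and 0.0046 within chip 2. Macroh2a1 had 0.14 (standard error 0.35), but was lower within both chips, at -0.46 and -0.20.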

How the data were processed

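The authors deposited intensities of 25697 probes on 7 arrays, not normalized per the file headers, each with a detection p-value, and processed log2 values whose method was not stated. The latter had the same median, 7.52, in every column, were not centred per gene, and served as an alternative. The 2 groups came from the sample titles and the chips from the descriptions.

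Intensities were background corrected by negative controls that limma infers from those p-values (offset 16), quantile normalized and taken to log2 by neqc in limma 3.58.1 under R 4.3.3. A probe was kept if detected (p under 0.05) on 2 or more arrays, with the brightest probe of a gene used, which gave 6969 features. BRD7116 and DMSO were compared by limma's two-sided moderated test (lmFit, eBayes) without covariates, and p-values were adjusted over all features by Benjamini-Hochberg, with 0.05 as the threshold. The fit was also run on simulated data with independent noise and no chip effect, so that run says nothing about the dim chip. Each array counted as 1 sample, and the number of arrays limits the precision. A probe undetected in 1 group had only a bound there, while counts and medians over genes use its fitted value.

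The gene family and the lists were chosen with earlier results of these data known, and the members follow from a rule on symbols alone. Every tested histone gene is named, with all array values where it was detected on at least 5 arrays, and each pathway list gives its 2 most abundant members. Symbols came from the platform annotation, and the check against RefSeq (GRCm38.p6) changed 0. RefSeq coordinates are given for promoters only, because the files name no build. No pairing by replicate number was stated, and the main fit used none. Deviations from the group means correlated at -0.52 and -0.32 between arrays of equal number. The deviations of the 2 controls are exact opposites, and arrays of unequal number shared a chip. These correlations therefore cannot tell whether replicates were paired. The 20 alternatives changed the background correction, scaling, detection filter, probe choice, prior and array weights, blocked on chip or replicate number, left out arrays, and took the authors' values. They reuse the same arrays and are not separate observations. A change of prior alters p-values but no log2 fold change. A setting that shifted the median of all features by over 0.1 has its values given relative to that shift.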

Additional observations from a re-analysis of the deposited data

Results flagged for a closer look

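For 6 of 41 tested histone genes 1 treated array stood apart from the other 4. By chance about 1 in 20 genes (2.05 of 41) is flagged, which is a theoretical rate for separate genes. The rule was applied to these 41 genes only, and the share flagged over all features was not counted. Whether 6 is more than other genes give was therefore not tested. In all 6 the array was BRD7116 replicate 1, on the dim chip, so the flags are not separate observations. It was above the others for 2 germ-line genes near background, at 7.13 for H2ac1 (others 4.94 to 5.53) and 6.91 for H2al1n (others 5.15 to 5.51). It was below the others for H2bc12, at 5.13 (others 6.93 to 7.19), and for H4c8, at 5.28 (others 6.11 to 6.35). Neither probe was detected on that array, and the H4c8 probe was not detected on DMSO replicate 2 either. BRD7116 replicate 1 was also below the other treated arrays for H2bc7, at 8.65 (others 8.89 to 8.98), and for H2az1, at 9.85 (others 10.40 to 10.56). In all 6 genes DMSO replicate 2, on the same chip, differed from DMSO replicate 1 in that same direction, though for H2bc12 the controls were nearly equal. The levels on DMSO replicates 2 and 1 were 7.45 and 5.35 for H2ac1, 7.28 and 5.37 for H2al1n, 7.29 and 7.33 for H2bc12, 5.98 and 6.64 for H4c8, 8.77 and 9.07 for H2bc7, and 9.51 and 10.48 for H2az1. The part of the dim chip in these values was not tested.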

How the results depend on the processing

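Over 20 alternative settings 2 of 795 recomputed gene values passed the threshold, H2al2a at -1.53 (adjusted p = 0.0132) and H2bc4 at -2.21 (adjusted p = 0.0148), both without DMSO replicate 1, and 61 values, of 28 genes, turned sign. The number of features past the threshold was 1 with normexp, the authors' values, no detection filter or detection on all 7 arrays, 2 without background correction and with a trended robust prior, and 0 to 610 when 1 array was left out, with 0 to 2 histone genes. At an unadjusted p under 0.05 there were 900 features with chip as a block and 18 with the replicate block, against 493. Leaving out 1 array gave -0.14 to 0.80 for the replication-independent median and -0.0071 to 0.72 for its difference from the replication-dependent median. Median scaling moved the median of all features from 0.046 to 0.55, and relative to that shift it turned H2ax (0.19), H1f5 (-0.28), H2ac21 (0.31), H2ac24 (0.35), H2ac4 (-0.16), H2ac8 (-0.37), H2bc11 (0.066), H2bc7 (0.29), H2bc9 (0.082), H3c4 (0.029), H4c6 (-0.20) and H2aj (-0.052). Array weights turned H2bc14 (0.0076) and H4c3 (0.056). The chip block and the replicate block average the same 4 arrays and gave equal values, turning H2ac10 (-0.072), H2ac11 (-0.15), H2ac15 (-0.0064), H2ac21 (0.015), H2ac22 (-0.089), H2ac4 (-0.063), H2ac7 (-0.065), H2ac8 (-0.19), H3c1 (-0.15) and H2aj (-0.019). Leaving out the dim chip turned H2ax (0.0063), H2ac21 (0.083), H2ac24 (0.010), H2ac4 (-0.17), H2ac7 (-0.068), H2bc15 (0.39) and H2aj (-0.090). Leaving out 1 array turned H2bc7 (range -0.19 to 0.11), H4c18 (-0.50 to 0.31), H2ac24 (-0.10 to 0.027), H2ac21 (-0.18 to 0.12), H2bc14 (-0.57 to 0.11), H4c3 (-0.63 to 0.44), H4c8 (-0.65 to 0.049), H2ac1 (-1.87 to 0.24), H2al1n (-1.69 to 0.25), H2ac4 (-0.30 to 0.56), H2ac7 (-0.13 to 0.57), H2bc15 (-0.78 to 0.25), H2bc4 (-2.21 to 0.063), H3c1 (-0.031 to 0.27), H2aj (-0.26 to 0.76), H2az1 (-0.12 to 0.85) and H3f3b (-0.16 to 1.17). The cause was not tested. A lone control was taken to vary as the treated arrays do. Genes detected on few arrays lie near background and have the widest intervals.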
